A study of Mus musculus with 6 samples.

Results

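The immunity-related GTPases (IRGs) are a family of large GTPases that mouse cells make in response to interferon-γ. The members described here are Irgm1, Irgm2, Igtp, Iigp1, Tgtp1, Tgtp2, Ifi47 and Gm12250, chosen by symbol as the rows of the count table whose Ensembl identifiers map to these names. They are 8 of 55401 genes in the table, and all 8 were among the 19554 genes with enough counts to be tested. Microglia were isolated from mouse brain on a Percoll gradient and selected with magnetic beads for CD11b, an integrin chain on myeloid cells including microglia. One group was MRL/lpr mice, which carry the lpr mutation of the Fas gene on the MRL/MpJ background, and the other was MRL/mpj mice of the same background without the mutation. The mutation is present in all cells of the animal, and mice of both groups were untreated and 6 weeks old per the labels. Each strain gave 3 libraries. The study counts its sequenced samples as mice, while the labels name no animals, and p-values measure the spread between these libraries.

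IRG proteins assemble on the membranes of vacuoles that hold intracellular pathogens such as Toxoplasma, and the vacuole is then disrupted. Irgm1, Irgm2 and Igtp (also called Irgm3) are the regulatory members, which sit on the cell's own membranes and keep the other members inactive there. Iigp1 (Irga6), Tgtp1 and Tgtp2 (Irgb6), Ifi47 (Irgd) and Gm12250 (Irgb10) are effector members, which load onto the vacuole. Loading needs the conjugation machinery of autophagy, and guanylate-binding proteins are partners on the same membranes. Interferon signals reach IRG promoters through the elements known as GAS and ISRE.

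The genes lie close together. In the GENCODE M21 annotation of GRCm38, the build given in the submitters' processing notes, 7 of the 8 members are on chromosome 11. Irgm1 (ENSMUSG00000046879, chr11:48861968-48871683, minus strand), Tgtp1 (ENSMUSG00000078922, chr11:48985327-48994172, minus strand), Tgtp2 (ENSMUSG00000078921, chr11:49057194-49064206, minus strand) and Ifi47 (ENSMUSG00000078920, chr11:49076587-49096974, plus strand) span 235007 bases. Gm12250 (ENSMUSG00000082292, chr11:58187739-58189012, plus strand), Igtp (ENSMUSG00000078853, chr11:58199556-58207591, plus strand) and Irgm2 (ENSMUSG00000069874, chr11:58199618-58222782, plus strand) span 35044 bases, 9090765 bases further along. Iigp1 (ENSMUSG00000054072) lies on another chromosome. The GENCODE M21 gene type of Gm12250 is processed pseudogene, whereas RefSeq has it as protein-coding.

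Short stretches of promoter are shown because they hold the letters of the GAS and ISRE elements, through which interferon signals reach these genes. The sequences are RefSeq promoters on GRCm38.p6, read 5′ to 3′ on the strand of the gene and ending before its start site. Capitals mark matches to the GAS letters TTCNNNGAA, or to the ISRE letters GAAA repeated after any 2 bases, on either strand.
Irgm1 (chr11:48871421-48871490, minus strand): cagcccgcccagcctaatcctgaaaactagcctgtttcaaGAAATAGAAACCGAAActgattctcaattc
Igtp (chr11:58199486-58199555, plus strand): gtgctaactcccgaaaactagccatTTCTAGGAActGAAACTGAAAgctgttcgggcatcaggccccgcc
Irgm2 (chr11:58214883-58214952, plus strand): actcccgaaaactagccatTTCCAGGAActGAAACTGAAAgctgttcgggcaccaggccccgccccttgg
Tgtp1 (chr11:48992284-48992353, minus strand): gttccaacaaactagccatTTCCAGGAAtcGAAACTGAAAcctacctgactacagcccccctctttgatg
Tgtp2 (chr11:49064243-49064312, minus strand): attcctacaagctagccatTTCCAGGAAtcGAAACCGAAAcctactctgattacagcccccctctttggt
Gm12250 (chr11:58183744-58183813, plus strand): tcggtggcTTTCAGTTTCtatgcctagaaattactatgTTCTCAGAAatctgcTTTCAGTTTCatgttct

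A window of 250 bases before and 50 bases after the RefSeq start was searched for 7 members, Iigp1 not among them. Of these 7 windows, 5 held a GAS match and 6 an ISRE match. In Igtp, Irgm2, Tgtp1 and Tgtp2 the GAS match stood first and the ISRE match followed after 2 bases. In Gm12250 the gap was 6 bases, the ISRE letters were on the opposite strand, and another ISRE match lay further upstream. Irgm1 had 2 overlapping ISRE matches and no GAS match in this window, and Ifi47 had neither. Among 32851 promoter windows of this length, 8.3% held a GAS match, 3.44% an ISRE match, and 0.131% held both within 10 bases, as 5 of the 7 members did. A match describes letters and is not a measurement of binding.

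The promoter copies are themselves alike. Igtp and Irgm2 shared an unbroken run of 55 bases upstream of their starts, Tgtp1 and Tgtp2 a run of 27 bases, and Irgm2 and Tgtp1 a run of 20 bases, so the matches in these members are not independent of each other. The elements lay at different distances from the start. The GAS match of Igtp began 45 bases before it, that of Irgm2 75 bases, that of Tgtp2 81 bases and that of Tgtp1 88 bases.

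**Figure D1:**
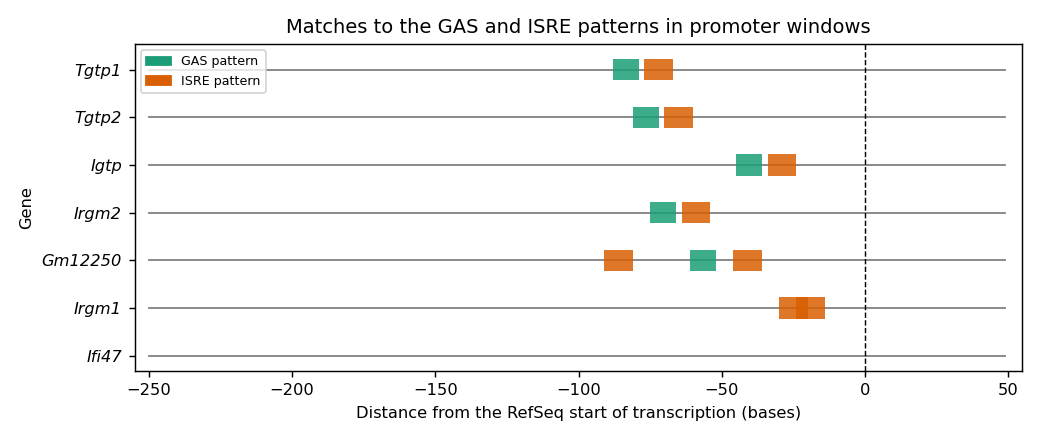
Positions of GAS and ISRE matches in the promoter windows of the 7 members with a RefSeq window, in bases relative to the start site. Igtp, Irgm2, Tgtp1 and Tgtp2 each have a GAS match followed by an ISRE match after 2 bases, Irgm1 has 2 overlapping ISRE matches, and Ifi47 has none.

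The MRL/lpr libraries held 45481609 to 48199739 counts and the MRL/mpj libraries 47826322 to 49846634. Counts piled up at multiples of 4 (1138 to 1288 genes per library had 4 counts and 320 to 415 had 3), so a low count rests on fewer reads than its size gives. The smallest count of a member was 94. Mitochondrial genes took 3.06% to 3.49% of counts in MRL/lpr and 5.84% to 6.38% in MRL/mpj libraries, and CT010467.1 alone took 6.38% in MRL/lpr replicate 3 against at most 0.457% elsewhere. Fas had 282 to 461 counts in MRL/lpr and 362 to 432 in MRL/mpj libraries, which does not check the strain labels, since mutant and intact transcripts are counted together. The study's methods describe female mice without giving the sex of the animals sequenced. Xist, the RNA of the inactive X chromosome, had 8886 to 11319 counts in MRL/lpr libraries and 27 to 38 in MRL/mpj libraries, while 4 Y-linked genes (Ddx3y, Eif2s3y, Kdm5d and Uty) had 8408 to 15046 counts in all 6 libraries. The strain and the sex make-up of the preparations cannot be told apart. The defining markers of microglia were abundant in both groups, with summed levels of 22153 to 24682 CPM, counts scaled to library size, in MRL/lpr and 25503 to 26204 CPM in MRL/mpj.

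Most IRG genes were higher in the CD11b-selected cells of MRL/lpr mice. Of the 8 members, 7 were upregulated (log2 fold change of MRL/lpr over MRL/mpj, log2FC, of at least 1 with a p-value under 0.05 after Benjamini-Hochberg adjustment over all tested genes, by the quasi-likelihood test of edgeR), none was downregulated, and Irgm2 did not pass the test. Among all 19554 tested genes, 4.67% were upregulated by the same rule and 3.66% downregulated. In 7 members, again all but Irgm2, every MRL/lpr library was above every MRL/mpj library in level, as in 19.6% of all tested genes, and the reverse held for 19.4% of them and for none of the members. The median log2FC was 1.62 over the 8 members and -0.01 over all tested genes. With scaling by library size only, these medians were 1.50 and -0.13, and 6 members were called. Without MRL/lpr replicate 3, the library with the high share of CT010467.1, 7 members were called. Summed over the family, the level was 250.4, 280.2 and 256.6 CPM in MRL/lpr and 91.1, 96.5 and 93.1 CPM in MRL/mpj, where CPM is scaled by edgeR's TMM factors. The means were 262 ± 15.7 CPM and 93.5 ± 2.71 CPM (SD, n = 3), a ratio of 2.80. In bulk libraries, more cells of a type that holds the RNA and more RNA per cell cannot be told apart.

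**Figure D2:**
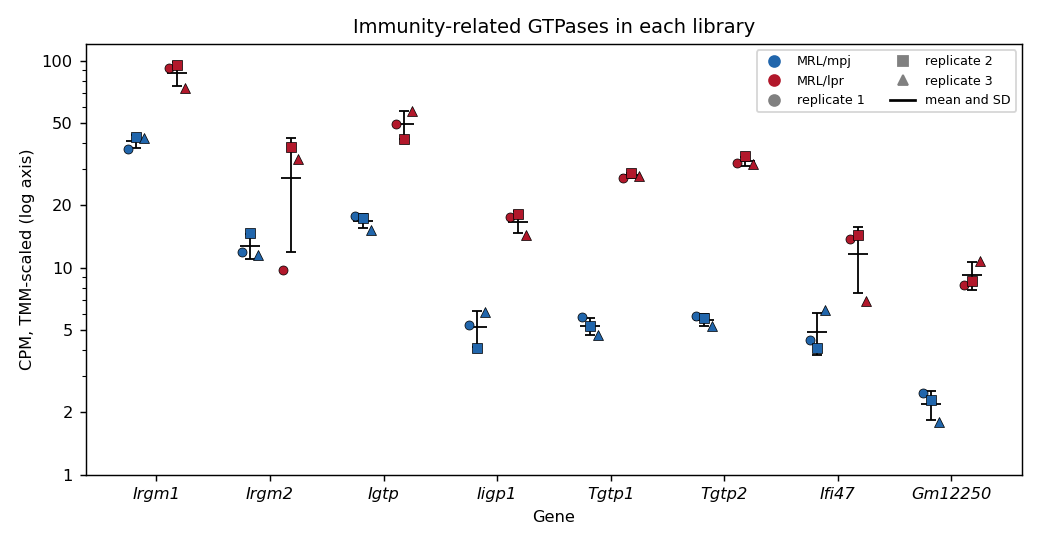
Level of each of the 8 members in each library, in CPM on a log axis, with 1 point per library, coloured by strain, and bars for the mean and SD (n = 3). The groups do not overlap in 7 members, and in Irgm2 the lowest MRL/lpr library, at 9.78 CPM, lies below all 3 MRL/mpj libraries.

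Among the regulatory members, Irgm1 was the most abundant in counts. Its level was 92.2, 95.3 and 74.1 CPM in MRL/lpr and 37.4, 42.8 and 42.2 CPM in MRL/mpj. The MRL/lpr libraries were all above the MRL/mpj libraries. The log2FC was 1.10 (SE 0.11, edgeR quasi-likelihood, Benjamini-Hochberg adjusted p = 0.000122), a 2.14-fold difference just past the threshold. With library size only it was 0.98 (adjusted p = 0.000575), and the log2 ratio of mean FPKM (fragments scaled to gene length and depth, as deposited) was also 0.98. Irgm1 protein is known from interferon-treated macrophages, where it associates with the Golgi and with phagosomes.

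Igtp, which resides on the endoplasmic reticulum and lipid droplets, rose more. It had 49.5, 41.9 and 57.3 CPM in MRL/lpr and 17.9, 17.5 and 15.3 CPM in MRL/mpj. All MRL/lpr libraries lay far above the MRL/mpj libraries, with a log2FC of 1.55 (SE 0.13, edgeR quasi-likelihood, Benjamini-Hochberg adjusted p = 3.44e-05).

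Irgm2, a Golgi-associated regulator, stood apart from the rest of the family. It had 9.78, 38.3 and 33.5 CPM in MRL/lpr and 11.99, 14.8 and 11.5 CPM in MRL/mpj. MRL/lpr replicates 2 and 3 were above all MRL/mpj libraries, and MRL/lpr replicate 1 was below them. The log2FC of 1.09 had a standard error of 0.52 and did not pass (edgeR quasi-likelihood, Benjamini-Hochberg adjusted p = 0.238). Without MRL/lpr replicate 1 it was 1.49 (adjusted p = 0.00026 from the same test). The highest MRL/lpr library was 3.92 times the lowest. Among 10774 genes at least as abundant as the lowest member by mean CPM over all 6 libraries, 0.538% reached this ratio within MRL/lpr.

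The low value of Irgm2 in MRL/lpr replicate 1 was not shared by its neighbour Igtp, whose annotated exons overlap those of Irgm2 on the same strand by 162 bases, or 4.4% of the exon length of Irgm2. The ratio of Irgm2 to Igtp counts was 0.198 in MRL/lpr replicate 1, and 0.916 and 0.583 in MRL/lpr replicates 2 and 3. In MRL/mpj the ratio was 0.670, 0.845 and 0.753. Of the windows of 150 bases in their transcripts, the length of 1 read, 0.437% of those of Irgm2 and 0.739% of those of Igtp occur in the other gene.

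The effector pair Tgtp1 and Tgtp2, which encode Irgb6, had the largest fold changes of the family. Tgtp1 had 27.2, 28.8 and 27.9 CPM in MRL/lpr and 5.76, 5.22 and 4.75 CPM in MRL/mpj. Tgtp2 had 32.0, 34.7 and 31.7 CPM in MRL/lpr and 5.88, 5.74 and 5.21 CPM in MRL/mpj. These were also the tightest members within MRL/lpr, with the highest library 1.06 times the lowest for Tgtp1 and 1.10 times for Tgtp2. Tgtp1 had a log2FC of 2.41 (SE 0.12, adjusted p = 1.87e-06) and Tgtp2 of 2.55 (SE 0.11, adjusted p = 9.3e-07), both by edgeR's quasi-likelihood test after Benjamini-Hochberg adjustment.

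Tgtp1 and Tgtp2 are near-identical copies, so the division of reads between them is uncertain. Of the windows of 150 bases in their transcripts, 62.5% of those of Tgtp1 also occur in Tgtp2 and 68.4% of those of Tgtp2 also occur in Tgtp1. Counted as 1 gene, they had 2782, 2990 and 2487 counts in MRL/lpr and 598, 548 and 518 in MRL/mpj. The log2FC of this sum was 2.48 (SE 0.10, edgeR quasi-likelihood, Benjamini-Hochberg adjusted p = 4.45e-07), and with the pair counted as 1 gene 6 of 7 members were called. Tgtp1 made up 45.4% to 46.8% of the sum in MRL/lpr and 47.6% to 49.5% in MRL/mpj libraries.

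Gm12250, the gene of Irgb10, had low counts but a large difference. It had 388, 405 and 452 counts in MRL/lpr and 127, 115 and 94 in MRL/mpj, or 8.25, 8.60 and 10.8 CPM against 2.47, 2.30 and 1.81 CPM. The lowest MRL/lpr library was far above the highest MRL/mpj library. The log2FC was 2.07 (SE 0.21, edgeR quasi-likelihood, Benjamini-Hochberg adjusted p = 0.000123).

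Iigp1, whose product is Irga6, also rose. It had 17.7, 18.1 and 14.4 CPM in MRL/lpr and 5.31, 4.10 and 6.09 CPM in MRL/mpj. The groups were well separated, with a log2FC of 1.69 (SE 0.18, edgeR quasi-likelihood, Benjamini-Hochberg adjusted p = 0.000167). The value of this member outside the chromosome 11 clusters lay within the range of the others.

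Ifi47, the gene of Irgd, was the least certain of the called members. It had 13.7, 14.4 and 6.94 CPM in MRL/lpr and 4.46, 4.08 and 6.23 CPM in MRL/mpj. The groups came close, and MRL/lpr replicate 3 and MRL/mpj replicate 3 overlapped in raw counts (290 and 324) and in FPKM (2.30 and 2.32). The log2FC was 1.25 (SE 0.29, edgeR quasi-likelihood, Benjamini-Hochberg adjusted p = 0.015). The call was lost without MRL/lpr replicate 1 (adjusted p = 0.0513), without MRL/lpr replicate 2 (0.0557), without MRL/mpj replicate 1 (0.0653) and without MRL/mpj replicate 2 (0.0651), whereas without MRL/lpr replicate 3 the log2FC was 1.52 (adjusted p = 0.00106). Ifi47 shares 111 exon bases with Olfr56 on the same strand, and the counting rule for such reads is not given in the sources used here.

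**Figure D3:**
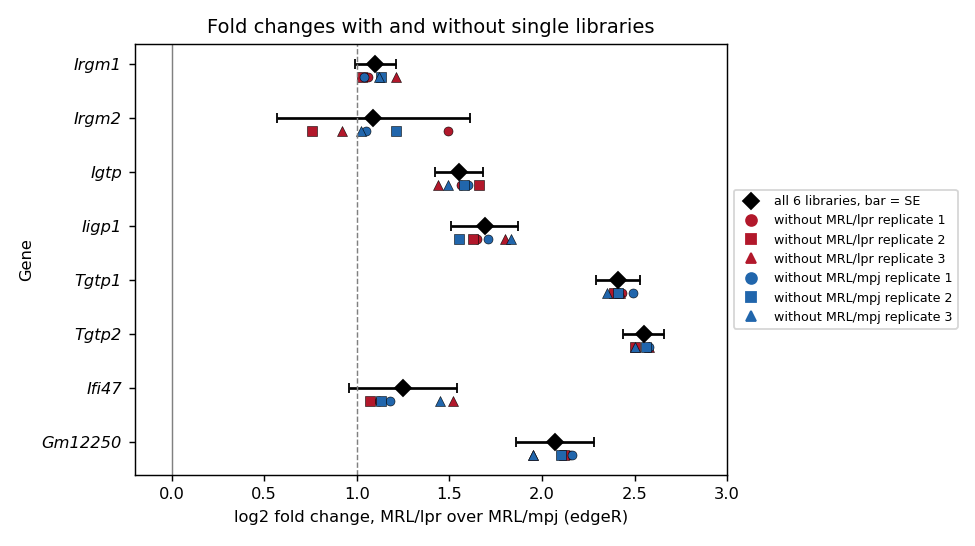
Log2 fold change of MRL/lpr over MRL/mpj for each member, from edgeR, with a diamond and a bar of 1 standard error for all 6 libraries and smaller points for fits without single libraries. Tgtp2 at 2.55 and Tgtp1 at 2.41 are highest, Irgm2 at 1.09 has the widest error bar, and the dashed line at 1 marks the fold-change threshold.

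Levels of different members were compared in deposited FPKM, the scale that takes gene length into account. The GENCODE model of Gm12250, with 1274 exon bases, starts at base 58187739, past its RefSeq promoter stretch, which ends at base 58183813. The model of Irgm2 starts at base 58199618, before its RefSeq promoter stretch at base 58214883. The FPKM of these members, also in sums, therefore depends on the gene model used. In MRL/lpr the order by mean level was Igtp (20.9 ± 2.70 FPKM, SD, n = 3), Irgm1 (12.9 ± 2.06), Tgtp2 (9.55 ± 0.707), Tgtp1 (7.45 ± 0.336), Irgm2 (6.27 ± 3.52), Gm12250 (6.17 ± 0.722), Ifi47 (4.07 ± 1.53) and Iigp1 (2.46 ± 0.371). The ranges of neighbours in this order overlapped for Tgtp1 and Irgm2, for Irgm2 and Gm12250, and for Ifi47 and Iigp1. In MRL/mpj the order was Igtp (7.76 ± 0.636 FPKM), Irgm1 (6.53 ± 0.476), Irgm2 (3.21 ± 0.445), Ifi47 (1.84 ± 0.424), Tgtp2 (1.77 ± 0.114), Gm12250 (1.60 ± 0.250), Tgtp1 (1.52 ± 0.150) and Iigp1 (0.82 ± 0.161). There, Ifi47 overlapped Tgtp2, Tgtp2 overlapped Gm12250 and Gm12250 overlapped Tgtp1. Igtp and Irgm1 led in both strains and Iigp1 was last in both.

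Summed together, effector members made up more of the family in each MRL/lpr library than in any MRL/mpj library. The 3 regulatory members summed to 37.5, 41.4 and 41.4 FPKM in MRL/lpr and to 17.2, 18.6 and 16.7 FPKM in MRL/mpj, a ratio of means of 2.29. The 5 effector members summed to 30.0, 31.7 and 27.4 FPKM in MRL/lpr and to 7.82, 7.19 and 7.62 FPKM in MRL/mpj, a ratio of means of 3.94. Effector over regulatory FPKM was 0.800, 0.767 and 0.661 in MRL/lpr and 0.455, 0.387 and 0.457 in MRL/mpj, with no overlap. Without Irgm2 this ratio was 0.852, 0.982 and 0.807 in MRL/lpr and 0.551, 0.483 and 0.553 in MRL/mpj. The effector sum includes Tgtp1 and Tgtp2, which had the largest log2FC of the family (2.41 and 2.55), and the ratio was not tested without them. Effector Ifi47 (log2FC 1.25) rose less than regulatory Igtp (1.55), and the other effector members rose more than Igtp. The ratio therefore describes the sum and not each effector member. No p-value is given for these sums, because the members were chosen with earlier results of these data known.

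**Figure D4:**
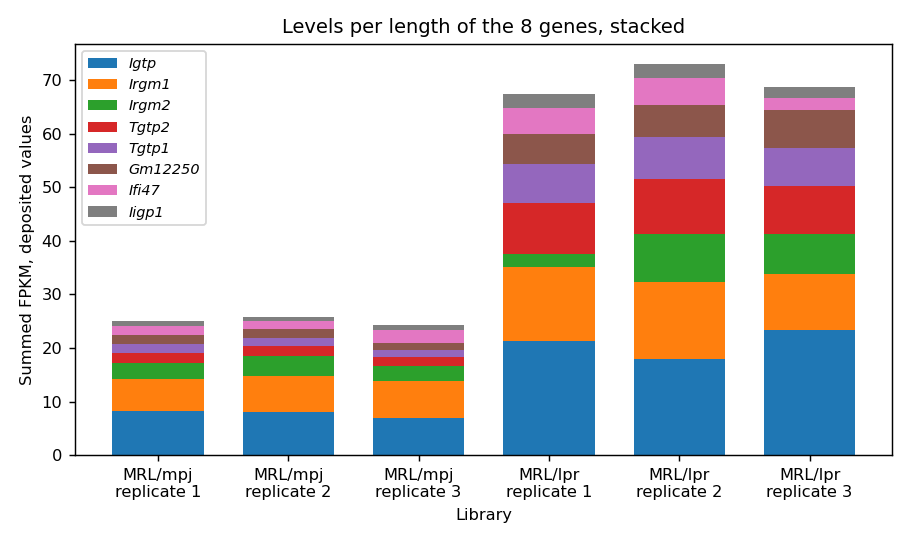
Deposited FPKM of the 8 members stacked for each of the 6 libraries, with the 3 regulatory members at the bottom and the 5 effector members above them. The MRL/lpr libraries sum to between 67.5 and 73.1 FPKM and the MRL/mpj libraries to between 24.3 and 25.8 FPKM.

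The interferon-γ pathway, through which the family is induced, was examined from the ligand to its targets. Of 17 listed genes, all tested, 7 were higher and 1 lower in MRL/lpr at an adjusted p-value under 0.05 (edgeR quasi-likelihood, Benjamini-Hochberg), with no fold-change minimum. Among all tested genes, 11.1% were higher and 9.06% lower by that rule. The median log2FC of the list was 0.38.

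Ifng, the ligand, had 64, 71 and 26 counts in MRL/lpr and 5, 26 and 31 in MRL/mpj. MRL/lpr replicate 3 and MRL/mpj replicate 3 overlapped in these counts and in FPKM (0.39 and 0.41). In CPM the groups came close without overlapping (0.622 and 0.596 in the same libraries). The log2FC of Ifng, 1.52 (SE 0.68), did not pass (edgeR quasi-likelihood, Benjamini-Hochberg adjusted p = 0.159). Of the receptor chains, Ifngr1 fell by 0.76 on the log2 scale (adjusted p = 5.22e-05), and Ifngr2 had a log2FC of 0.01 (adjusted p = 0.934), from the same test. The kinase gene Jak1 rose (log2FC 0.53), as did Stat2 (1.21) and Irf9 (0.64), which encode transcription factors of interferon signalling. Irf1 had a log2FC of 0.69 that did not pass (edgeR quasi-likelihood, Benjamini-Hochberg adjusted p = 0.194), and MRL/mpj replicate 1, with 6555 counts, lay within the range of the MRL/lpr libraries (4967 to 7118). Among the brakes on the pathway, Socs3 rose (0.38), and Socs1 had a log2FC of 0.34 that did not pass (adjusted p = 0.288). The transactivators of MHC genes both rose, Ciita (class II) with a log2FC of 1.61 (adjusted p = 0.00148) and Nlrc5 (class I) with 2.04 (adjusted p = 2.36e-05), both by edgeR's quasi-likelihood test after Benjamini-Hochberg adjustment.

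The guanylate-binding proteins, the partner GTPases on vacuoles, moved in the same direction as the IRG genes. Of 11 listed, 10 were tested, and 8 were higher and none lower at an adjusted p-value under 0.05, against 11.1% and 9.06% of all tested genes, with a median log2FC of 1.46. Gbp3 had 10114, 10505 and 7744 counts in MRL/lpr and 1367, 1293 and 1386 in MRL/mpj. Its log2FC of 2.98 (edgeR quasi-likelihood, Benjamini-Hochberg adjusted p = 1.06e-07) exceeded that of any IRG member. Gbp6 (2.77), Gbp10 (2.60) and Gbp8 (2.54) were of the size of Tgtp1 and Tgtp2, and Gbp4 (1.60), Gbp2 (1.33), Gbp7 (1.11) and Gbp9 (0.74) rose less. Gbp5 had a log2FC of -0.12 (adjusted p = 0.574) and Gbp2b of -0.38 (adjusted p = 0.862), from the same test.

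Few genes of the conjugation machinery of autophagy, which IRG proteins need for loading, passed the test. Of 15 genes, 1 was higher and none lower at an adjusted p-value under 0.05, against 11.1% and 9.06% of all tested genes, and the median log2FC was -0.03. The count was 0 without MRL/mpj replicate 1 or 3, and 2 without MRL/lpr replicate 3 or MRL/mpj replicate 2. The gene that rose was Map1lc3a (log2FC 0.53, edgeR quasi-likelihood, Benjamini-Hochberg adjusted p = 0.0151), which encodes a form of LC3, the protein that is conjugated to membranes. Atg16l1, which positions the conjugation complex, had a log2FC of 0.00 (adjusted p = 0.992), and Atg5 had -0.13.

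**Figure D5:**
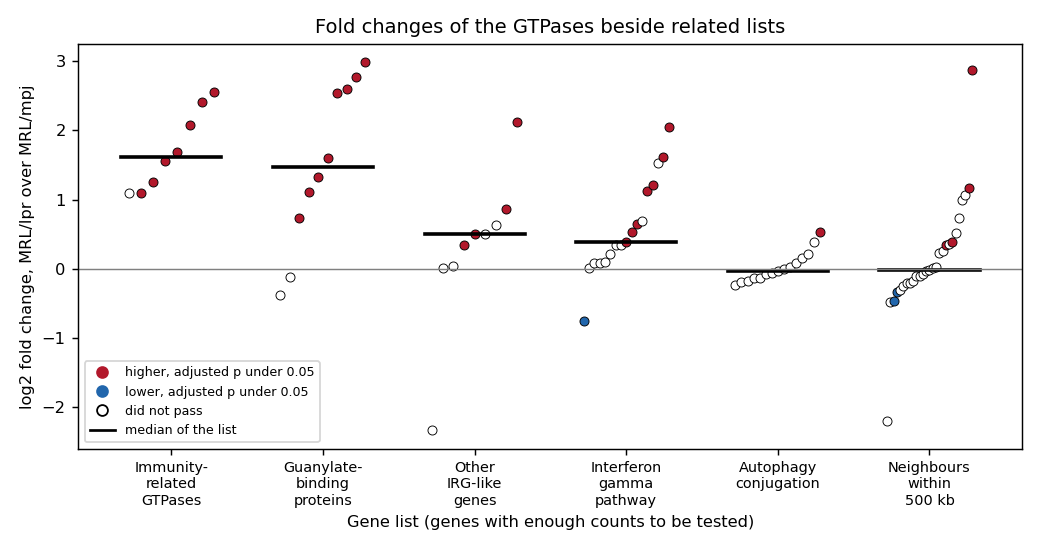
Log2 fold change of MRL/lpr over MRL/mpj for every tested gene of the IRG family, the related lists and the chromosome 11 neighbours, 1 point per gene, filled where the adjusted p-value was under 0.05, with a line at the median. The medians are 1.62 for the members, 1.46 for guanylate-binding proteins, 0.50 for other IRG-like genes, 0.38 for the interferon-γ pathway, -0.03 for the autophagy conjugation genes and -0.02 for the neighbours.

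Other genes related in sequence to the IRG family included further genes that rose, mostly by small steps. Of 10 listed, 9 were tested, and 4 were higher and none lower at an adjusted p-value under 0.05, against 11.1% and 9.06% of all tested genes, with a median log2FC of 0.50. Gm4951 had 107, 123 and 88 counts in MRL/lpr and 23, 25 and 34 in MRL/mpj, with a log2FC of 2.12 (edgeR quasi-likelihood, Benjamini-Hochberg adjusted p = 0.00185). It was the only gene of this list that also passed the fold-change threshold. Gm12185, which shares 223 exon bases with Tgtp1 on the same strand, had 0.87 (adjusted p = 0.00581), and the near-identical pair 9930111J21Rik1 (0.50) and 9930111J21Rik2 (0.35) passed with small values. Irgq, an IRG-like gene without a known interferon response, had 0.04, and Irgc1, which is expressed mainly in testis, had -2.33 (adjusted p = 0.27).

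Genes around the chromosome 11 clusters were compared as a check of the region. Of 92 genes that are not IRG-like and lie within 500 kb of a member, 27 were tested, and 4 were higher and 2 lower at an adjusted p-value under 0.05, with a median log2FC of -0.02. Pooled over both clusters, the share of higher genes was near the background of 11.1%. All 4 higher and both lower genes lay around the Irgm1 to Ifi47 cluster. Among the tested genes around that cluster alone, the shares higher and lower were both above the background of 11.1% and 9.06%. No gene around the Gm12250 to Irgm2 cluster passed, so the pooled share describes neither region alone. With single libraries left out, the count of higher genes was between 1 and 5, with 2 without MRL/lpr replicate 1, MRL/mpj replicate 1 or MRL/mpj replicate 2, and 1 without MRL/lpr replicate 2 or MRL/mpj replicate 3. By the call rule used for the members, Trim7 (log2FC 1.17, adjusted p = 0.0226) and Olfr56 (2.87, adjusted p = 0.00952) were upregulated, by edgeR's quasi-likelihood test after Benjamini-Hochberg adjustment. Olfr56 had 68, 77 and 22 counts in MRL/lpr and 10, 8 and 7 in MRL/mpj. Its gene model shares 111 exon bases with Ifi47 on the same strand. It also spans Tgtp1 and Tgtp2, which lie on the opposite strand and share no exon bases with it. Of the nearest tested genes outside the clusters, Gm16170 lies 8475 bases before Irgm1 and had 0.99 (adjusted p = 0.252), and Mrpl22 lies 8174 bases before Gm12250 and had -0.10 (adjusted p = 0.803). On the other sides, Zfp62 had 0.74 (adjusted p = 0.187) and 4930438A08Rik had 1.07 (adjusted p = 0.407).

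Markers of other cells were set beside the family, since lymphocytes also express IRG genes and make interferon-γ. Markers of T cells and NK cells were higher in MRL/lpr for 7 of 10 genes at an adjusted p-value under 0.05, against 11.1% of all tested genes, and they summed to 19.3 to 25.4 CPM in MRL/lpr and 5.32 to 6.28 CPM in MRL/mpj libraries. Markers of B cells and plasma cells were higher for 2 of 7 tested genes and summed to 28.8 to 31.8 CPM against 13.9 to 15.1 CPM. Most of that difference was Jchain, the antibody joining chain of plasma cells, with 13.8 to 16.7 CPM against 0.807 to 1.44 CPM. The other 6 tested genes summed to 12.98 to 15.2 CPM against 12.9 to 13.6 CPM, and these ranges overlapped. The plasma cell gene Mzb1 had 25, 54 and 48 counts in MRL/lpr and 0 in each MRL/mpj library. Of the T cell and NK cell list, Cd3d (log2FC 1.22, adjusted p = 0.0501) and Ncr1 (0.99, adjusted p = 0.708) did not pass edgeR's quasi-likelihood test. Klrb1c went the other way without passing (-2.74, adjusted p = 0.232 from the same test). Thus most T cell and NK cell markers, as well as Jchain and Mzb1, moved in the same direction as the IRG family. The part of such cells in the rise of the family was not tested.

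Markers of the other cell types were higher, lower or overlapping, depending on the type, and several counts were near the background of 11.1% higher and 9.06% lower. Monocyte markers summed to 74.3 to 84.0 CPM in MRL/lpr and 80.7 to 87.8 CPM in MRL/mpj libraries, with 3 of 6 higher and 1 lower. Border macrophage markers summed to 29.8 to 34.6 CPM against 40.8 to 46.3 CPM, with 2 of 5 lower, and neuron markers to 10.5 to 12.2 CPM against 22.4 to 24.98 CPM, with 2 of 4 lower. Neutrophil markers summed to 445.4 to 535.4 CPM against 365.5 to 415.9 CPM, with 1 of 6 higher, and endothelial markers to 1339 to 1512 CPM against 1209 to 1252 CPM, with 1 of 5 higher. Astrocyte markers overlapped, with 57.0 to 63.2 CPM and 51.6 to 61.4 CPM and none of 5 past the test. Oligodendrocyte markers also overlapped, with 1 of 4 lower. Among the microglial markers, 2 of 10 were lower and none higher.

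By the correlation of log2 levels over the 6 libraries with the mean of the centred members, the most similar genes were Gm23172 (Pearson r = 0.9995), Spon2 (0.9995), Golm1 (0.9992), Cnr2 (0.9991) and Myo1g (0.9988). These values describe 6 points that share the difference between the strains. Likeness in shape did not mean likeness in size: Golm1 had a log2FC of 0.40, Cnr2 of 0.83 and Myo1g of 1.32. The 2 most similar genes had low counts. Gm23172, with a log2FC of 5.41, had 84, 115 and 80 counts in MRL/lpr and 2, 2 and 3 in MRL/mpj. Spon2 had no count in any MRL/mpj library and at most 12 counts in a MRL/lpr library.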

How the data were processed

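The data were RNA-seq libraries, 3 per strain, of brain cells selected for CD11b. Per the submitters' processing notes, the tools include cutadapt 1.9.3, HISAT2 2.0.4, Cufflinks and Cuffdiff 2.2.1, with GRCm38. The labels describe removal of ribosomal RNA and the methods purification of mRNA. The authors deposited raw counts, which are whole numbers for each gene, and FPKM values, which are scaled to gene length and depth. The counting tool is not given in the sources used here. Symbols and gene models came from GENCODE M21, which matched 55141 of 55401 identifiers.

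Counts were tested with edgeR 4.0.16 in R 4.3.3 (filterByExpr with a minimum count of 10 and minimum total of 15, TMM, robust dispersions, quasi-likelihood test, Benjamini-Hochberg adjustment over all tested genes, no covariates). The smallest p of an exact permutation test of 3 libraries against 3 is 0.1. CPM was scaled by TMM, and correlations used log2(CPM + 0.5). FPKM was used for levels between genes, for sums over members and as an alternative ratio between strains, without a test. Alternatives were DESeq2 1.42.0, other normalizations and filters, counts divided by 4, a replicate block, and each library left out. The steps were tested on simulated data.

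The members and lists were chosen with earlier results of these data known. The genes named are all members, genes of the lists, the nearest and the called neighbours, and the 5 genes most like the family. One listed gene enters the counts but has no values of its own here.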

Additional observations from a re-analysis of the deposited data

How the results depend on the processing

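All 8 members kept a positive log2 fold change under each alternative. The number of members called stayed between 6 and 7, also when each library was left out in turn. DESeq2 called 7, with Ifi47 at 1.24 (adjusted p = 0.000233) and Irgm2 at 1.08 (adjusted p = 0.196). Over its alternatives, the adjusted p of Irgm2 ran from 0.00026 to 0.455. An adjusted p alone, without the fold minimum, called 3950 genes instead of 1630, because that rule drops a condition.

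The labels do not say whether the replicate numbers pair the samples. The deviations of libraries with the same number had correlations of -0.05, -0.03 and -0.06. These values show no shared effect of the number and cannot tell how the samples were handled. With a replicate block, 1422 genes and 6 members were called, and Ifi47 was lost at 1.21 (adjusted p = 0.0649). The block left 0 autophagy genes and 1 neighbour higher.

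The autophagy, neighbour and other IRG-like lists had counts that moved. Counts divided by 4 gave 2 autophagy genes higher, and leaving out libraries gave 0 to 2. Scaling by library size gave 2 neighbours higher, and leaving out libraries gave 1 to 5. Dispersions that were not robust gave 1 neighbour lower, and leaving out libraries gave 1 to 2, with 1 without MRL/lpr replicate 2 or 3 or MRL/mpj replicate 2 or 3. Other IRG-like genes lower were 0 to 1, with 1 without MRL/lpr replicate 1. The cause was not tested. Counts pile up at multiples of 4, and counts divided by 4 called 1597 genes and 7 members.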
